A study of Mus musculus with 143 samples.

Results

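Double-masked area of the fimbria, positive for both IBA1 and Galectin-3, was set against SYTO83-masked nuclei of the same tract. The members were the fimbria segments whose label names both proteins or the nuclear dye alone. They came to 38 of the 143 segments in the series, 20 double-masked and 18 SYTO83-masked. Each held at least 1000 counts and 50% sequencing saturation to enter, which left 18 double-masked and 16 SYTO83-masked segments. Segments were summed per mouse and mask, and every one of the 10 sums exceeded the minimum of 5000 counts, so that 5 mice contributed both masks.

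Both groups came from the same 5 female C57BL/6 mice aged 28 months (N101, N108, N110, N111 and N112), with no younger or treated mice among them. The hemispheres were fixed in 4% paraformaldehyde for 24 hours and cut sagittally at 5 µm after paraffin embedding. Probe tags were read with the GeoMx mouse Whole Transcriptome Atlas. In this assay, probes hybridised to RNA carry tags that light releases from a stained and outlined area, and the tags are then sequenced. The segments are listed under plates A and B. Those of N101 and N108 were on plate A alone, those of N112 on plate B alone, and N110 and N111 had both. Both masks of a mouse were on the same plates, while plate and mouse are partly confounded. How the areas were chosen, and whether the SYTO83 or the IBA1 mask leaves out the area positive for both proteins, is not given in the sources used here.

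IBA1 is a calcium-binding protein of microglia, the resident macrophages of the brain, and its stain fills their cell bodies and processes. Galectin-3 is a sugar-binding lectin that activated and phagocytic macrophages make in quantity, and in ageing and demyelinating tissue it marks a subset of microglia. The fimbria is a white matter tract that carries hippocampal axons, and most of its nuclei belong to oligodendrocytes, the cells that make myelin. SYTO83 binds nucleic acids and was used to mark nuclei of any cell type. The 2 masks therefore differ both in the cells they cover and in the part of the cell they cover, and these cannot be told apart here.

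The deposited files identify probes by code. None of the 20175 codes (0) was found in the reference table of 49997 genes, so no probe is given a gene name or a role, and no marker of microglia or oligodendrocytes could be checked in either mask. Nor could the negative control probes be picked out. Levels are given as deduplicated counts per 10000 counts of a sum, a scale on which an even spread over all probes would put 0.496 at each. Per-mouse values follow the order N101, N108, N110, N111, N112.

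Depth differed more among double-masked than among SYTO83 segments. The median total was 24202.5 counts in double-masked segments (1699 to 112730) and 22510.5 in SYTO83 segments (10938 to 57773). The summed double-masked counts were 237612, 276973, 139044, 34378 and 9039, against 120329, 95498, 110375, 93981 and 28904 in the SYTO83 sums. The double-masked sums of N111 and N112 were thus the shallow ones, and a single count in N112 already amounted to 1.11 per 10000. Of reads, 84.2%, 84.2%, 9.22%, 29.3% and 28.3% aligned to probe tags in double-masked sums, against 91.8%, 56.0%, 20.2%, 41.7% and 65.8% in SYTO83 sums. The share was lower in the double-masked sum in 4 of 5 mice (mean difference -8.04 percentage points; exact sign-flip permutation p = 0.5). Carrying the aligned share as a covariate gave 23 higher and 27 lower calls, and keeping only segments with at least 75% of reads aligned gave 1 higher and 0 lower, against 33 and 33 without either. The 2 failed segments of each mask held at most 83 counts in the double mask and at most 93 under SYTO83. No 2 passing segments had identical counts (0 pairs).

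The double-masked sums differed from the SYTO83 sums at 66 of the 658 probes with enough counts to test. These divided evenly into 33 probes called higher and 33 called lower, which is 10% of the tested probes in all and 5.02% in each direction. The test was edgeR's quasi-likelihood F test with the mouse as a block and a Benjamini-Hochberg adjusted p under 0.05. Its variance was mostly pooled over probes, with 147 prior against 4 residual degrees of freedom. A small p-value therefore rests mainly on that pool and less on 1 probe's own spread over mice. At an unadjusted p under 0.05 there were 146 probes. The tested probes held a median of 9.24% of a sum's counts, so most counts lay in probes too sparse to test singly. How much of those counts is background could not be told without the negative control probes. The median log2 fold difference over all tested probes was -0.01 after TMM scaling (trimmed mean of M-values), which centres the bulk of the probes near 0. With scaling by total counts alone that median was -0.48, and the calls became 8 higher and 210 lower. All 33 higher and all 33 lower probes kept their sign under that scaling. Without the mouse block the calls were 28 higher and 12 lower. Leaving out N101 gave 17 and 13, leaving out N108 gave 16 and 19, and leaving out N110 gave 11 and 13. A level in such an area can differ through fewer cells of a type or through less RNA per cell, which cannot be told apart.

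**Figure D1:**
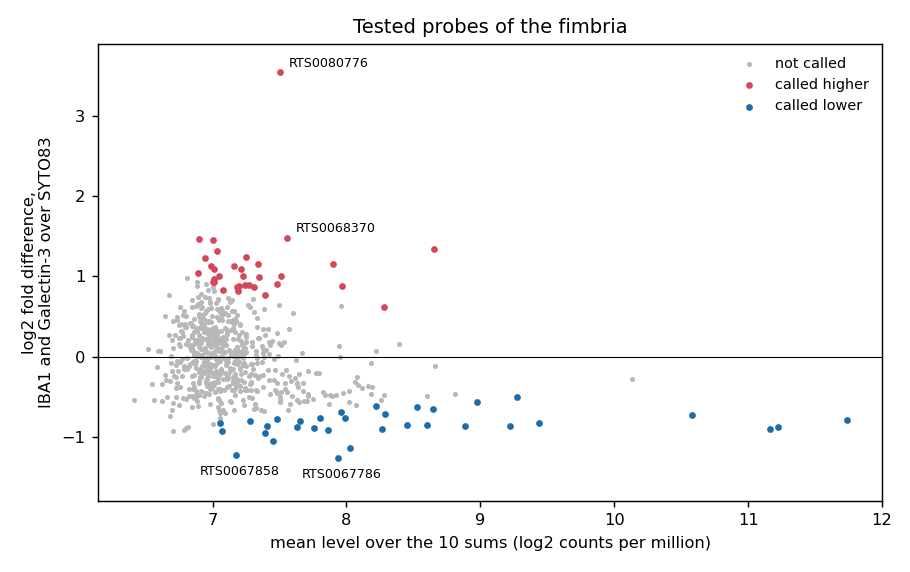
Each point is 1 of the 658 tested probes, with its mean level over the 10 sums (log2 CPM) on the horizontal axis and its log2 fold difference, double mask over SYTO83, on the vertical axis. Red points were called higher, blue points lower and grey points not called. Points called lower reach further right than those called higher, although a probe at 8.66 log2 CPM was called higher. RTS0080776 stands alone at the top.

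The abundant probes among the calls were mostly falls. The 33 higher probes had log2 fold differences of 0.62 to 3.55, with a median of 1.0, and 18 of them exceeded 1. Their median level was 7.21 log2 CPM (a sum's counts brought to a common total), close to the 7.06 over all tested probes. The 33 lower probes ran from -1.27 to -0.51, with a median of -0.85 and a median level of 8.03 log2 CPM. No called probe drew more than 19.0% of its counts from a single segment.

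How far single probes separated the masks depended on the scaling. After TMM scaling, 22 of the 33 higher probes were higher in the double mask in all 5 mice, and 3 had groups that did not overlap. On the same scale 29 of the 33 lower probes were lower in all 5 mice, and 12 had groups that did not overlap. Over all tested probes the groups of 26 did not overlap on that scale, which is 3.95%. On counts per 10000, a scale on which the median tested probe lay at -0.48, 4 higher and 19 lower probes had groups that did not overlap, beside 55 of all tested probes (8.36%). The count minimum also bears on the higher probes: 12 of the 33 reached its level (0.971 per 10000) in at least 3 double-masked sums and in at most 1 SYTO83 sum. A probe of that kind passed mainly through the mask in which it was high. Among all tested probes there were 16 of that kind and 131 of the opposite kind.

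Summed over the list, the lower probes held 0.608%, 0.956%, 1.26%, 1.33% and 1.41% of double-masked counts, against 1.44%, 2.36%, 3.15%, 2.87% and 3.31% of SYTO83 counts. Their share was lower in the double mask in every mouse, although N101's SYTO83 share lay close to the highest double-masked share. The higher probes held 0.529%, 0.483%, 0.517%, 0.544% and 0.520% of double-masked counts, against 0.393%, 0.308%, 0.290%, 0.306% and 0.294% of SYTO83 counts. All tested probes together held 5.93%, 7.26%, 7.74%, 8.85% and 9.62% of double-masked counts, against 8.58%, 11.5%, 11.996%, 11.982% and 13.4% of SYTO83 counts. These shares are not TMM-scaled and describe probes chosen on the same sums, and no test is attached to them.

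**Figure D2:**
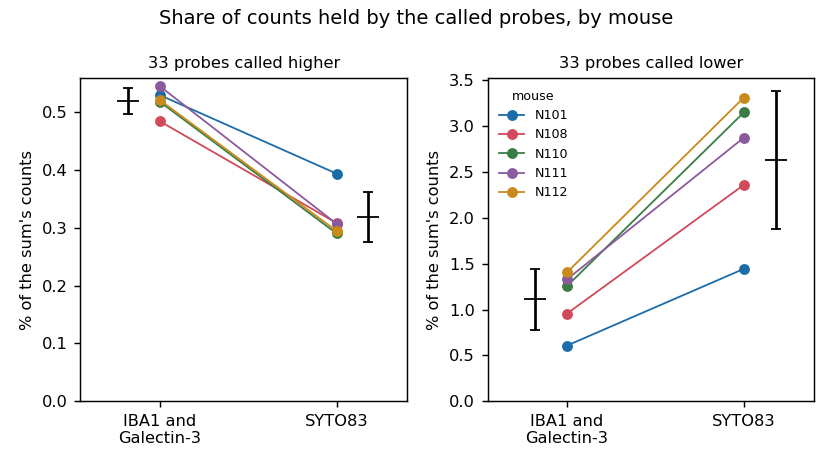
The share of each sum's counts (%) held by the 33 probes called higher and by the 33 called lower, with the double mask on the left and SYTO83 on the right of each panel. Lines join the sums of 1 mouse, and black bars give the mean and SD over 5 mice. Every mouse lies on the called side in both panels, as the choice of probes would make likely.

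Calls made from 4 mice were looked up in the mouse left out of the fit. Without N101, 16 of 17 higher and 11 of 13 lower calls had the same direction in N101. Without N108 these were 16 of 16 and 17 of 19, and without N110 they were 10 of 11 and 12 of 13. Without N111 they were 22 of 26 and 32 of 36. The weakest return was among the rises without N112, the shallowest mouse, where 29 of 43 higher and 42 of 46 lower calls had the same direction. Among all tested probes, 32.9% to 50% were higher and 50% to 67.1% lower in the left-out mouse.

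RTS0080776 was the probe with the largest fold difference of all 658. It was at 1.05, 2.02, 3.74, 4.07 and 6.64 counts per 10000 in double-masked sums, against 0.166, 0.209, 0.272, 0.426 and 1.04 in SYTO83 sums. The groups did not overlap, though the lowest double-masked mouse, N101, lay only just above the highest SYTO83 mouse, N112. Within each mouse the double-masked value was several times the SYTO83 value. By mouse these rest on 25, 56, 52, 14 and 6 double-masked counts, against 2, 2, 3, 4 and 3 SYTO83 counts. The size of each ratio, and the narrow gap between the groups, are therefore imprecise. The means were 3.50 ± 2.15 in the double mask and 0.422 ± 0.358 under SYTO83 (SD, n = 5 mice each), from 153 and 14 counts. Its log2 fold difference was 3.55 (SE 0.33; edgeR quasi-likelihood adjusted p = 6.14e-18). This value and the fold differences of the other named probes are TMM-scaled, while levels per 10000 are not. With library totals alone the value for RTS0080776 was 3.19. All 5 double-masked sums and 1 SYTO83 sum reached the level of the count minimum, so it passed through the double mask.

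The same probe was higher in every area in which both masks could be read. In 15 of 15 such areas the double-masked segment had the higher level, with a median of 3.01 and a range of 0.594 to 9.48 per 10000. The SYTO83 segments of those areas had a median of 0.180 and a range of 0 to 1.92. No single segment held more than 12.6% of its counts. The areas of 1 mouse share its tissue and are not separate replicates. Their segments also make up the sums from which the named probes were chosen. The order by area, for this probe and the other named ones, is therefore no separate support.

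RTS0068370 was the next largest rise under the naming rule, and it was less clear-cut. It was at 2.65, 1.77, 1.37, 0.873 and 3.32 counts per 10000 in double-masked sums, against 1.41, 0.524, 0.906, 0.638 and 0.692 in SYTO83 sums. It was higher in the double mask in 5 of 5 mice, but the naming rule admits only probes with 1 direction in all 5 after TMM scaling. The groups overlapped and the gap in N111 was small. The means were 2.0 ± 0.99 in the double mask and 0.835 ± 0.352 under SYTO83 (SD, n = 5 each), from 137 and 40 counts. The log2 fold difference was 1.48 (SE 0.27; edgeR adjusted p = 1.45e-05). It reached the level of the count minimum in 4 double-masked sums and 1 SYTO83 sum, so it too passed mainly through the double mask. By area, the double mask was higher in 10, lower in 3 and equal in 2 of 15.

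RTS0067786 had the largest fall. It was at 0.379, 1.08, 1.29, 1.75 and 1.11 counts per 10000 in double-masked sums, against 1.25, 2.93, 5.53, 4.58 and 5.88 in SYTO83 sums. N101's SYTO83 value lay inside the double-masked range, and the other SYTO83 values lay above it. The means were 1.12 ± 0.493 in the double mask and 4.03 ± 1.93 under SYTO83 (SD, n = 5 each), from 64 and 164 counts. The log2 fold difference was -1.27 after TMM scaling (SE 0.24; edgeR adjusted p = 2.48e-05), and -1.72 with library totals alone. With at least 75% of reads aligned it was -0.41 and not called (adjusted p = 0.576). The double-masked segment was the lower one in 13 of 15 areas.

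RTS0067858 was at 0.589, 0.397, 1.01, 0.291 and 1.11 counts per 10000 in double-masked sums, against 1.33, 3.14, 1.4496, 1.92 and 2.08 in SYTO83 sums. The groups did not overlap, and N108 had the widest gap. The means were 0.678 ± 0.363 in the double mask and 1.98 ± 0.719 under SYTO83 (SD, n = 5 each), from 41 and 86 counts. The log2 fold difference was -1.23 (SE 0.29; edgeR adjusted p = 0.00116). Without N108 it was -0.60 and no longer called (adjusted p = 0.39). It reached the level of the count minimum in 2 double-masked and 5 SYTO83 sums. The double-masked segment was lower in 12 of 15 areas and higher in 3.

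**Figure D3:**
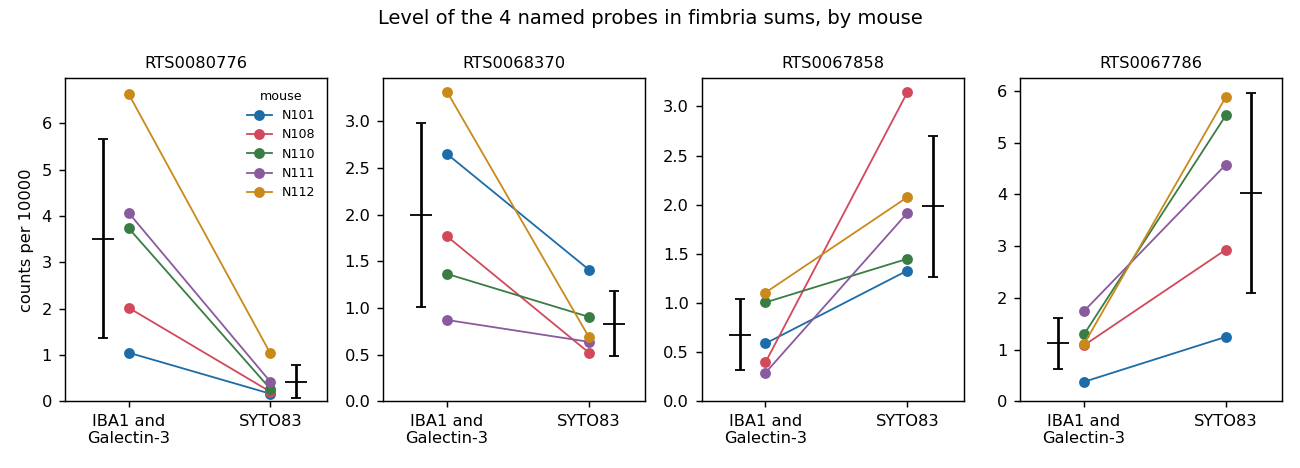
Counts per 10000 of the 4 named probes in fimbria sums, with the double mask on the left and SYTO83 on the right of each panel. Lines join the sums of 1 mouse, and black bars give the mean and SD over 5 mice. Levels of RTS0080776 and RTS0068370 are higher, and those of RTS0067858 and RTS0067786 lower, in the double-masked sum of each mouse. The naming rule admits only probes with 1 direction in all 5 mice after TMM scaling.

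The lower calls gathered among probes that are abundant under SYTO83 elsewhere in the same brains. Tested probes were ranked by their level in SYTO83 segments of hippocampus and cortex, which are not part of the comparison but come from the same mice and the same mask. Of the top 20, 14 were called lower and 0 higher in double-masked fimbria, and the median log2 fold difference was -0.64. Of the next 80 probes, 11 were called lower and 3 higher, with a median of -0.43. Among the 200 after those the calls were 6 lower and 7 higher, with a median of -0.05. The remaining 358 had 2 lower and 23 higher calls and a median of 0.11. Against the 5.02% called lower over all tested probes, the lower calls thus stood mainly in the first 100 ranks. Ranking by SYTO83 level favours probes that are high under that mask in these mice. Abundant probes are also called more easily: the lower probes had a median of 245 counts, against 117.5 over all tested probes. Of the 33 higher probes, 12 had passed the count minimum mainly through the double mask. The order of calls over ranks therefore cannot be read apart from these limits.

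The same pattern appeared without any test of single probes. The 100 probes most abundant in SYTO83 segments of hippocampus and cortex held 1.41%, 2.06%, 2.51%, 2.64% and 3.14% of double-masked fimbria counts. They held 2.69%, 4.15%, 5.11%, 4.86% and 5.54% of SYTO83 fimbria counts. The share was lower under the double mask in 5 of 5 mice and in 15 of 15 areas. Choosing the probes by their level under SYTO83 in the same mice favours a higher share under that mask. The means were 2.35% ± 0.652 in the double mask and 4.47% ± 1.11 under SYTO83 (SD, n = 5 each), a difference of -2.12 percentage points. The exact two-sided sign-flip permutation test gave p = 0.0625. No lower p can be reached with 5 mice, and over the 8 values tested in this way the adjusted p was 0.167.

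Counts in double-masked sums were also spread over more probes at equal depth. A draw of 9000 counts would be expected to hold 7109, 7095, 7074, 7063 and 7008 different probes in double-masked sums, against 7037, 6830, 6819, 6831 and 6710 in SYTO83 sums. The double-masked sum held more in 5 of 5 mice, by a mean of 224.5 probes (SD 88.5; exact permutation p = 0.0625, adjusted 0.167). The widest gaps were in N112, N108 and N110, and the narrowest was in N101. The 100 most abundant probes of each sum held 3.13% ± 1.16 of double-masked counts and 4.82% ± 1.20 of SYTO83 counts (SD, n = 5 each), again with all 5 mice lower in the double mask (exact permutation p = 0.0625, adjusted 0.167). That last share also depends on depth, which differed between the masks.

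A measure of concentration gave the same order in all but 1 mouse. It is the chance that 2 random counts belong to the same probe, relative to an even spread. It was 1.55, 1.24, 1.46, 1.47 and 1.63 in double-masked sums, against 1.43, 2.07, 3.39, 2.90 and 3.80 in SYTO83 sums. N101 went the other way, and there a single double-masked segment held 1079 of the 1228 counts of 1 probe. The mean difference was -1.25 (exact permutation p = 0.125, adjusted 0.25). Without that probe N101 had 1.13 in the double mask and 1.43 under SYTO83, a value taken after the contrary order of N101 was seen and left untested. By area, concentration was lower in the double mask in 14 of 15, including all 7 areas in which the double-masked segment had the higher aligned share. Areas of 1 mouse are not separate replicates, and the bearing of the aligned share on concentration was not tested.

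**Figure D4:**
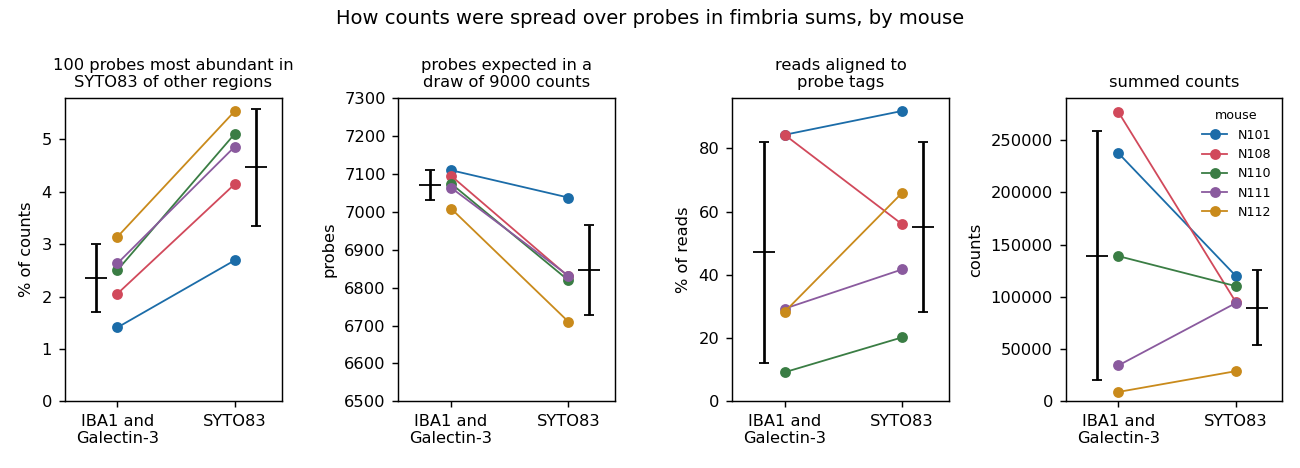
Fimbria sums by mouse, with the double mask on the left and SYTO83 on the right of each panel. The panels give the share of counts in 100 probes abundant in SYTO83 segments of other regions (%), the number of probes expected in a draw of 9000 counts (axis from 6500), the share of reads aligned to probe tags (%) and the summed counts, with black bars for the mean and SD over 5 mice. All 5 mice are lower under the double mask in the first panel and higher in the second, while the other panels show mixed directions.

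Low shares were also read in the other stained masks. The share in those 100 probes ran from 1.07% to 3.99% in IBA1-masked fimbria sums, with a median of 1.99%, beside a median of 2.51% in double-masked and 4.86% in SYTO83 fimbria sums. In Galectin-3-masked fimbria sums the median was 1.56% (4 mice). In the hippocampus it was 1.73% in double-masked sums (3 mice) and 3.08% in SYTO83 sums (5 mice), although hippocampal SYTO83 segments helped to choose the probes. These values are a description, and the differences among the stained masks were not tested.

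The double mask was then set directly against IBA1-masked fimbria, with the 3 masks in 1 fit. This asks whether area positive for both proteins differs from area positive for IBA1. Of 818 tested probes, 1 was called higher and 0 lower, which is 0.122%, and 35 probes had an unadjusted p under 0.05 (edgeR quasi-likelihood test). The called probe was RTS0080776, with a log2 fold difference of 2.17 (SE 0.30; edgeR adjusted p = 3.96e-10). It was at 0.231, 0.424, 0.407, 0.957 and 1.451 counts per 10000 in IBA1 sums. In each mouse the double-masked sum was higher than the IBA1 sum.

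The other named probes were closer between double mask and IBA1. The log2 fold difference of double mask over IBA1 was 0.15 for RTS0068370, -0.15 for RTS0067786 and -0.71 for RTS0067858, with an adjusted p of 0.992 for each (edgeR, SE 0.26 to 0.33). The IBA1 mask over SYTO83 gave 1.38 for RTS0080776, 1.31 for RTS0068370, -1.12 for RTS0067786 and -0.49 for RTS0067858. The double mask over SYTO83 gave 3.56, 1.46, -1.28 and -1.20 for the same probes in that fit. The comparisons with SYTO83 share its sums, so these values stand side by side without a test of likeness.

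RTS0080776 was also followed through the remaining masks and regions. Its median was 3.74 per 10000 in double-masked fimbria, 0.937 in double-masked hippocampus, 0.534 in Galectin-3-masked fimbria and 0.424 in IBA1-masked fimbria. It was 0.334 in IBA1-masked cortex, 0.303 in SYTO83-masked cortex, 0.272 in SYTO83-masked fimbria, 0.259 in SYTO83-masked hippocampus and 0.253 in IBA1-masked hippocampus. The double-masked fimbria led that order, but its lowest mouse, N101 at 1.05, lay within the ranges of double-masked hippocampus (0.604 to 1.62), IBA1-masked fimbria (0.231 to 1.451) and SYTO83-masked hippocampus (0 to 1.13). The other 4 of its mice lay above every sum outside it, and all later neighbours in the order overlapped. The double-masked hippocampus had 1.62, 0.937 and 0.604 per 10000 in N101, N108 and N110, from 5 counts in all, against 0.166, 0.616 and 0.259 in SYTO83 sums of the same mice. The pooled hippocampal double-masked level was 0.825 per 10000, with an exact Clopper-Pearson 95% interval of 0.268 to 1.93. In the fimbria it was 2.19, with an interval of 1.86 to 2.57. Such intervals cover counting error only.

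The falls had a different order over regions. RTS0067786 had its highest median, 4.58 per 10000, in SYTO83-masked fimbria, and its median was 2.59 in SYTO83-masked hippocampus and 1.95 in SYTO83-masked cortex. These 3 groups overlapped, with ranges of 1.25 to 5.88, 0.616 to 5.10 and 1.67 to 2.49. It was 1.11 in double-masked fimbria and 1.34, 1.04 and 0.728 in IBA1-masked fimbria, hippocampus and cortex. In double-masked hippocampus the median was 0.302, from 5 counts in all. The values there were 0, 1.87 and 0.302 in N101, N108 and N110, against 0.828, 0.616 and 2.59 in their SYTO83 sums. Under Galectin-3 the median was 1.07 in fimbria (4 mice). It was 2.27 in hippocampus, above SYTO83-masked cortex, from 2 mice and 5 counts. RTS0067858 had medians of 0.589 in double-masked and 1.92 in SYTO83-masked fimbria, but 1.41 in double-masked and 1.27 in SYTO83-masked hippocampus. RTS0068370 had medians of 1.77 in double-masked and 0.692 in SYTO83-masked fimbria. Its median was 1.36 in SYTO83-masked and 1.20 in IBA1-masked cortex, and 1.36 in Galectin-3-masked and 1.13 in IBA1-masked fimbria. In the hippocampus it was 1.07 under IBA1 and 0.691 under SYTO83. The range of RTS0068370 in double-masked fimbria (0.873 to 3.32) overlapped that in SYTO83-masked cortex (0.607 to 1.67). RTS0068370 was listed at 0 in 2 of the 3 double-masked hippocampus sums, where only 2 counts were read in all.

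**Figure D5:**
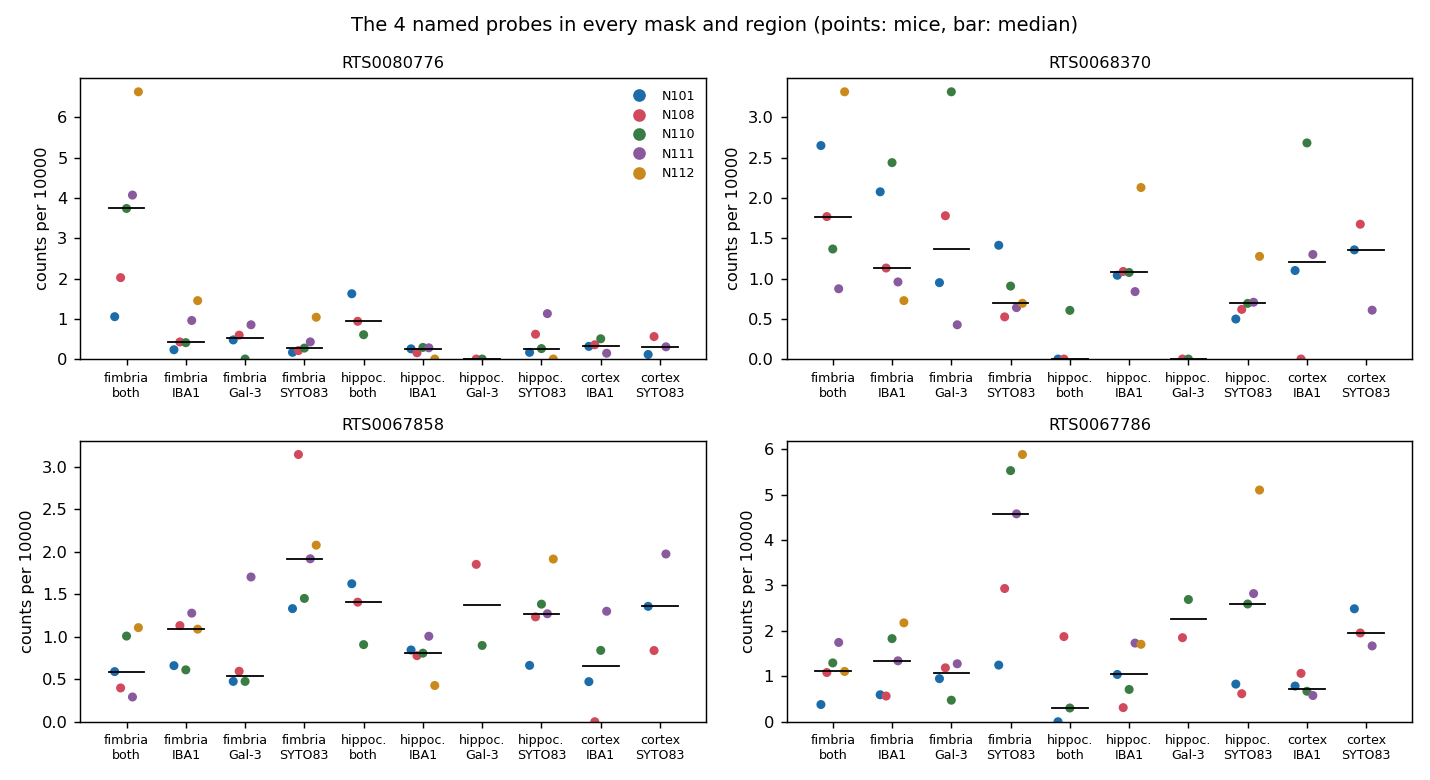
Counts per 10000 of the 4 named probes in every mask and region with a passing sum. Points are mice, black bars are medians, "both" is the double mask of IBA1 and Galectin-3, "Gal-3" is Galectin-3 alone and "hippoc." is hippocampus. For RTS0080776, 4 of the 5 double-masked fimbria sums lie above every other sum. RTS0067786 has its highest median in SYTO83-masked fimbria, where its mice overlap those of SYTO83-masked hippocampus and cortex.

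Whether the difference between the masks depended on the region was tested as an interaction, fimbria minus hippocampus. The hippocampal double-masked sums were few and shallow, with 6165, 21344 and 33091 counts in N101, N108 and N110. Of 618 tested probes 1 was called, which is 0.162%, and 43 had an unadjusted p under 0.05 (edgeR quasi-likelihood test). That probe was the one read almost wholly in a single double-masked fimbria segment of N101, and without probes of that kind 0 were called. The interaction was 2.65 for RTS0080776 (SE 0.90; edgeR adjusted p = 0.182) and 2.86 for RTS0068370 (SE 0.99; adjusted p = 0.192). Without N110, whose sum holds all hippocampal double-masked counts of RTS0068370, its value was 7.32 (SE 2.40; edgeR adjusted p = 0.21), which is no bound, since the remaining hippocampal double-masked sums hold 0 counts of it. The interaction was 0.26 for RTS0067786 (SE 0.78) and -0.80 for RTS0067858 (SE 0.78), with adjusted p of 0.982 and 0.948. With a median SE of 0.81 per probe, a regional dependence of moderate size was not detectable at this depth.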

How the data were processed

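Deduplicated probe counts per segment were deposited by the authors, with no normalization. Per the file headers they were made with the GeoMx NGS Pipeline 2.3.3.10, with reads assigned to probe tags and duplicates removed by molecular identifier. GRCm39 is the build listed in the submitters' processing notes. The headers' raw and aligned reads gave the aligned share and the saturation.

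Segments with at least 1000 counts and 50% saturation were summed per mouse, region and mask, and sums of at least 5000 counts were kept. Mouse was the replicate and the block, since both masks come from the same animals. Same-mouse deviations correlated at 0.03 to 0.29 over tested probes. Counts were tested with edgeR 4.0.16 in R 4.3.3 (glmQLFTest, TMM, library totals over all probes, filterByExpr with a minimum count of 10) and called at a Benjamini-Hochberg adjusted p under 0.05. In the fits with IBA1 or hippocampal sums, the test took its variance wholly from the pool over probes. Alternatives used DESeq2 1.42.0 and limma 3.58.1 (voom with duplicateCorrelation). Single values per mouse were tested by exact two-sided sign-flip permutation over 5 mice, which cannot go below p = 0.0625. 3 of those 8 values were added after the data were seen: the 9000-count draw, the share in probes abundant in other regions, and concentration. Only the fit of double mask against SYTO83 was run on simulated counts with known changes. Those counts held no mouse or plate differences and 1 spread setting for all probes, so they were simpler than the real sums. Sums ranged from 9039 to 276973 counts in the fimbria comparison. Python 3.11.15 with scipy 1.17.1 and matplotlib 3.10.9 drew the figures.

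The members, lists and tests were chosen with earlier results of these data known. Gene and cell type lists could not be run, since codes are not paired with genes. The named probes are the 2 largest rises and falls among calls above the median level of tested probes with 1 direction in all 5 mice.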

Additional observations from a re-analysis of the deposited data

Results flagged for a closer look

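N101 was the least saturated mouse in both masks. Its saturation was 99.04% in the double mask, against 99.50% to 99.53% in the other mice. Under SYTO83 it was 98.41%, against 99.50% to 99.75%. N112 was the shallowest mouse under SYTO83. Its log2 total was 14.82 there, against 16.52 to 16.88 in the other mice, and it held 482.5 probes with a count per 1000 counts, against 166.3 to 208.0. These 4 were far from the rest of 28 groups of values looked at, and chance alone puts about 1 group in 20 there.

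The difference between masks differed between fimbria and hippocampus at 1 probe, with an interaction of 3.97 (SE 0.86; edgeR adjusted p = 0.00242). It was at 46.0 per 10000 in the double-masked fimbria sum of N101 and at most 0.873 in the double-masked fimbria sums of the other mice, against 0.346 to 0.838 in SYTO83 fimbria sums. Of its 1228 counts over the sums of that fit and the IBA1 fimbria sums, 1079 lay in 1 segment. Without N101 the regional comparison called 0 probes.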

How the results depend on the processing

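Both counts of calls moved with the settings, while no called probe changed sign in any of the 25 alternatives in which it was tested. Higher and lower calls were 33 and 33 as reported. They were 8 and 210 with library totals alone, 11 and 13 with DESeq2, 4 and 109 with no count filter, 8 and 96 at a minimum count of 5, and 6 and 5 at a minimum of 20, where 65 probes were tested. They were 17 and 18 over areas with both masks, 11 and 12 with mouse and plate as block, 2 and 6 on plate A and 8 and 4 on plate B. With at least 75% of reads aligned they were 1 and 0. That setting left N111 and N112 without a double-masked sum. The fit without those mice, added after the data were seen, gave 31 and 53. It kept all passing segments of the other mice, whereas the 75% setting also removed counts from them. N110's SYTO83 sum, for example, held 110375 counts in the former and 18337 in the latter. The 2 fits therefore differ in counts as well as in aligned share, and the cause was not tested. With at least 75% aligned, RTS0080776 kept its call (adjusted p = 0.0145). Segments as observations gave 55 lower calls. Without the replicate block the calls were 28 and 12. Leaving out each mouse gave 11 to 43 higher and 13 to 46 lower calls, the fewest without N110 (11 higher) and without N101 or N110 (13 lower). The log2 aligned share as a covariate gave 23 and 27. The higher share of calls was 50% as reported, 3.67% with library totals alone and 54.1% with upper-quartile factors.

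RTS0080776 was called in 21 of the 21 alternatives in which it was tested (log2 fold difference 3.01 to 3.81, adjusted p 2.63e-24 to 0.0145). It missed the count filter in the others, including the fit without N110. RTS0068370 was called in 20 of 22 (0.93 to 1.78, adjusted p 1.45e-05 to 0.229), RTS0067786 in 22 of 24 (-1.82 to -0.41, 1.97e-10 to 0.576) and RTS0067858 in 17 of 22 (-1.77 to -0.60, 1.04e-07 to 0.39).

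Double mask over IBA1 called 3 probes with no count filter, 2 on plate B, and 0 on plate A or with mouse and plate as block, where RTS0080776 missed the count filter and was not tested. In that comparison RTS0067786 turned to 0.096 without N101 (-0.44 to 0.096 over the mice left out) and 0.058 over areas with both masks. The regional comparison called 2 with library totals alone and 0 with DESeq2, with no count filter, with the aligned covariate, without probes high in 1 segment and with the newer quasi-likelihood estimate. Leaving out each mouse gave 0 to 3 there. Its RTS0067786 value turned to -0.30 with library totals alone, -0.089 with no count filter and -0.74 without N110 (-0.74 to 1.82 over the mice left out). The difference in log2 total, -0.06, turned to 0.29 without N111 and 0.35 without N112 (-0.45 to 0.35 over the mice left out), and that in saturation, 0.05 percentage points, to -0.10 without N101 (-0.10 to 0.11). The cause was not tested where the setting keeps all sums and probes. Depth limits the comparison mainly in N112, where the double mask held 9039 counts.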
